A study of Mus musculus with 8 samples.

Results

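A set of 10 genes that mark resident macrophages and their work of clearing dead cells was followed on 8 arrays of sorted CD4+ T cells. They are C1qa, C1qb, C1qc, Apoe, Aif1, Csf1r, Adgre1, Cd68, Mrc1 and Spi1, 10 of 22180 genes that a probe set with 1 gene symbol measured. Probe sets were chosen by their mean level over the 8 arrays, the highest one being kept for each symbol. Each of the 10 genes had only 1 such probe set, so this mean level, which ran from 3.43 for Mrc1 to 6.27 for Cd68 on the log2 scale, chose no probe set among them. It did decide which of the 10 were tested, since genes under the 40th percentile of mean level were left out. The genes were picked with earlier results of these data known.

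Irak1-/- and wt CD4+CD62L+ T cells of C57BL/6 mice were mixed in equal numbers and transferred into Rag1-/- mice, in which such naive cells expand and bring on colitis. The Irak1-/- cells carried the CD45.2 form and the wt cells the CD45.1 form of the leukocyte marker CD45. After 14 days CD3+CD4+ cells with only CD45.2 and with only CD45.1 were sorted apart from the mesenteric lymph nodes of 2 pooled recipients, at a purity above 99.5%, for 4 arrays of Irak1-/- and 4 of wt cells. The arrays of a replicate share their recipients and form a pair. Irak1-/- cells lack IRAK1, a kinase of IL-1 receptor and Toll-like receptor signalling. The sort gate and the genotype cannot be told apart, since every Irak1-/- array came from the CD45.2 gate. Rag1-/- mice lack T and B cells of their own, while they still have macrophages, monocytes, dendritic cells and neutrophils. The sources used here do not give the CD45 form of the recipients.

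Resident macrophages live in tissues, depend on the growth factor receptor CSF1R and on the transcription factor PU.1, and take up dying cells, a process called efferocytosis. The complement protein C1q binds dying cells and the immune complexes around them, and apolipoprotein E carries away the lipid that the meal leaves behind. In lymph nodes such cells line the sinuses and clear dying lymphocytes from the T and B cell zones. T cells are not known as a main source of C1q or CSF1R.

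The arrays gave log2 levels, with array medians between 4.25 and 4.31. Replicate 3 of Irak1-/- differed from the other 7 arrays. It correlated with the others at 0.950 to 0.957 over all probe sets, while the other 7 correlated with each other at 0.969 to 0.981. T cell markers, the list that checks the labelled cell type, had mean levels of 9.69 to 9.93 on the Irak1-/- arrays and 9.78 to 9.90 on the wt arrays (12 of 16 genes found). B cell markers, 8 of 9 found, had mean levels of 3.65 to 3.81 on the Irak1-/- arrays and 3.69 to 3.84 on the wt arrays. The background of the arrays is not given, so how far a low level lies above it is unknown. The number of arrays limits the precision. Irak1, the targeted gene, averaged 6.84 ± 0.167 on the Irak1-/- arrays and 6.77 ± 0.332 on the wt arrays (SD, n = 4 each). The labels do not place the deletion within the gene, and its level is therefore no check of the labels.

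None of the 10 macrophage genes passed the test between Irak1-/- and wt, and all 10 had a positive fitted difference. Across all 13308 genes that passed the filter on mean level, 9 were called higher, a share of 0.0676%, and 1 was called lower, a share of 0.00751% (limma with the pair as a block, adjusted p under 0.05). Of the 10, 9 were among the genes tested and Mrc1 was not. The median difference over the 10 was 0.40 on the log2 scale, with a range of 0.12 for Mrc1 to 1.08 for Aif1, beside -0.03 over all genes tested. A positive difference was found for 41.9% of the genes tested. An unadjusted p under 0.05 with a higher level was reached by 6 of the 10, namely C1qb, C1qc, Apoe, Aif1, Csf1r and Spi1, beside 2.88% of genes tested. Those 6 were also higher in all 4 pairs, beside 5.26% of genes tested. Csf1r passed the level filter through its Irak1-/- arrays, its wt mean of 3.81 being under the lowest passing mean of 3.90, so a count over tested genes is no support for it, and 5 of the 10 are left without it. With no level filter, 6 of the 10 reached that p, beside 2.69% of 22180 genes. Without Irak1-/- replicate 3, in a fit that then drops the pairing, here as below, 3 of the 10 reached that p, and the median difference was 0.35. Without pair 3, 4 reached it and the median was 0.27. Among tested genes named further on, Lyz2, Cybb, Clec7a, Mpeg1, Cd63, Clec4a3, Hp and Mmp8 also had wt means under 3.90. They too passed the level filter through their Irak1-/- arrays, so counts over tested genes are no support for them.

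**Figure D1:**
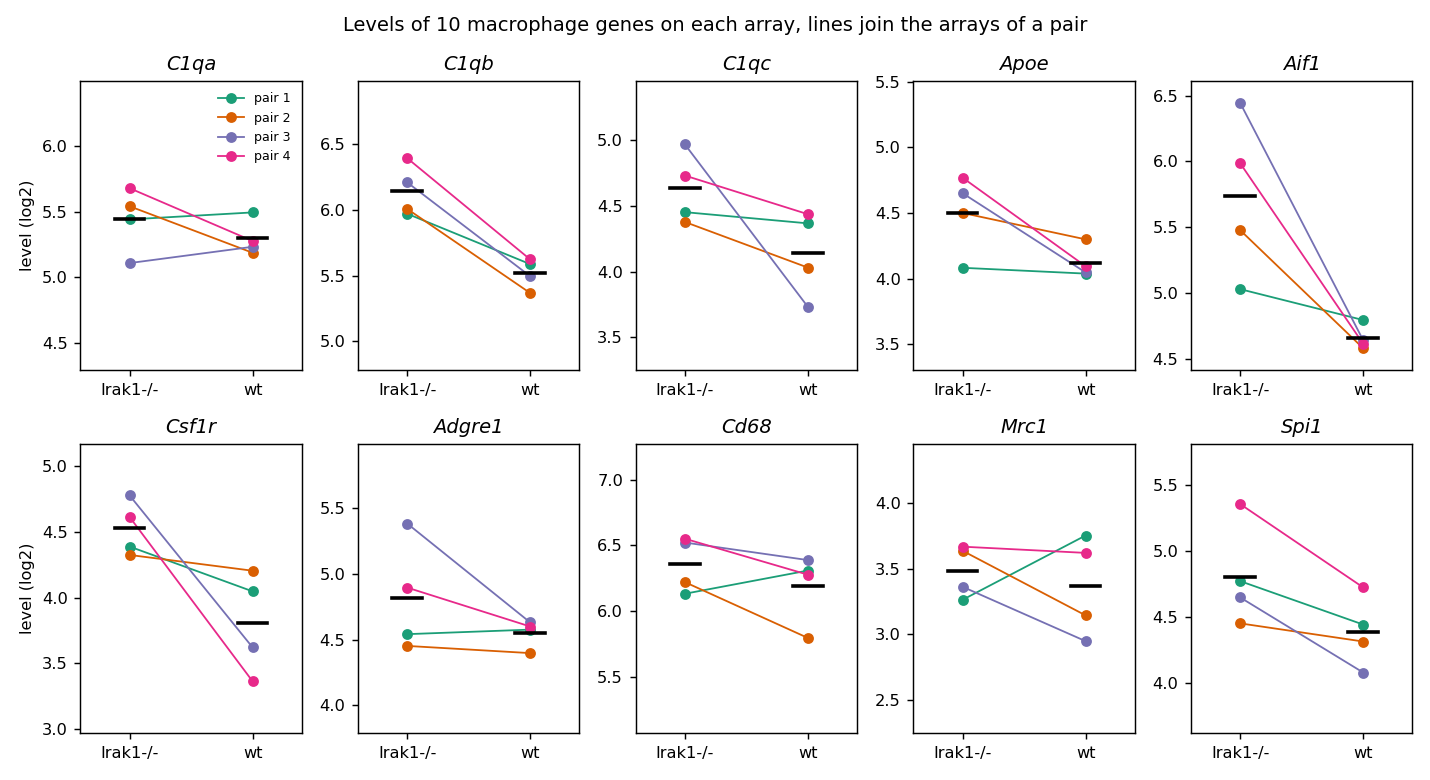
Level of each of the 10 genes on each array (vertical axis, log2, the same span in every panel), Irak1-/- left and wt right. Points are arrays, coloured lines join the arrays of a pair and black bars are means of 4; the Irak1-/- points of C1qb, Aif1 and Csf1r all lie above the wt points, while the groups of the other 7 genes overlap.

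Upstream sequences are shown for 4 of the genes, C1qb, C1qc, Aif1 and Cd68. Levels of C1qb, C1qc and Aif1 correlated with each other at 0.82 to 0.90 over the arrays. The groups of C1qc and Cd68 overlapped. Apoe, which is not shown, correlated with C1qb, C1qc and Aif1 at 0.65 to 0.87. RefSeq windows of the GRCm38.p6 build, from 250 bases before to 50 after a transcript start, were used for 6 of the 10 genes. No window was found for C1qa, Adgre1 and Spi1. Csf1r was left out of the search, so the counts of windows below do not cover it. Capitals mark GAGGAA, the core that PU.1 binds, on either strand (TTCCTC on the printed strand when it lies on the other). All 4 windows lie on the minus strand of their chromosome and are written 5′ to 3′ along the gene: C1qb at chr4:136886151-136886450, C1qc at chr4:136892865-136893164, Aif1 at chr17:35176003-35176302 and Cd68 at chr11:69666121-69666420.
C1qb: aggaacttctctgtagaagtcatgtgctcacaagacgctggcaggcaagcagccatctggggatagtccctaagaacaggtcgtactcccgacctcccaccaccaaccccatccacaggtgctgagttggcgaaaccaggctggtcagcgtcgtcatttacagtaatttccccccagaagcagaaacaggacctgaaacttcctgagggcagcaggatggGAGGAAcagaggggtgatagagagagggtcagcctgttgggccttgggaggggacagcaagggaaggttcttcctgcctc
C1qc: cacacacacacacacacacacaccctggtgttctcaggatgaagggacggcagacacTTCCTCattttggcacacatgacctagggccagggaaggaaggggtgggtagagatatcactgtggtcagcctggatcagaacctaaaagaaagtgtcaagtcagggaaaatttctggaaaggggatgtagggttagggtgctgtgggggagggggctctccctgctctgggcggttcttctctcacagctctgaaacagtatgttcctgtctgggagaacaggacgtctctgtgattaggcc
Aif1: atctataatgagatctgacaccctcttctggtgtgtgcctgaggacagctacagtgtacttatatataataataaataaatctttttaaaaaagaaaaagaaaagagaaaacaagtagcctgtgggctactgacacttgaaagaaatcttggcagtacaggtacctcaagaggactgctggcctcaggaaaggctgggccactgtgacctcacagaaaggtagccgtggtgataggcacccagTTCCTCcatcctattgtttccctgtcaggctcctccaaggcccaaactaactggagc
Cd68: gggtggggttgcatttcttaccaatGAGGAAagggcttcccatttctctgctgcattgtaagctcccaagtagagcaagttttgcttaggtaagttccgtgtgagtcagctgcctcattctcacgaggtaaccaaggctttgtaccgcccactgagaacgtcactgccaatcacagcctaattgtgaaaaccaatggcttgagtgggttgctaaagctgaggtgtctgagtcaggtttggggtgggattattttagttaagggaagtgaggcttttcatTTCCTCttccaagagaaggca
GAGGAA was present in 7 of the 8 windows of the 6 genes, the exception being 1 of the windows of Apoe, and 28.3% of all 32851 windows of this length hold it. In C1qb it starts 30 bases before the transcript start, in Aif1 the opposite-strand match starts 7 bases before it, and in C1qc it starts 193 bases before it. In Cd68 the matches start 225 bases before and 29 bases after the transcript start. The longer GAGGAAGT, which contains the core, was present in the C1qc window alone among the windows of the 6 genes, beside 3.2% of all windows. A match of letters is not a binding site.

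C1q genes encode the 3 chains of the molecule that starts the classical complement pathway, and the chains are made together. They lie side by side on chromosome 4. C1qb read 5.97, 6.01, 6.21 and 6.39 in Irak1-/- arrays of replicates 1 to 4, against 5.59, 5.37, 5.49 and 5.62 in wt arrays. Every Irak1-/- array lay above every wt array. Such a separation was found for 3 of the 10 genes, C1qb, Aif1 and Csf1r, beside 1.17% of all genes tested and 1.19% of all genes with no level filter. Csf1r was among the genes tested only through its Irak1-/- arrays, and 2 genes are left without it. C1qb averaged 6.15 ± 0.196 in Irak1-/- and 5.52 ± 0.114 in wt arrays (SD, n = 4 each), a fitted difference of 0.63 (SE 0.113, 95% interval 0.37 to 0.89, limma adjusted p = 0.162), or 1.54-fold. The difference was 0.38, 0.64, 0.71 and 0.77 in pairs 1 to 4, and the fitted value was 0.61 without Irak1-/- replicate 3.

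C1qc read 4.45, 4.38, 4.97 and 4.73 in Irak1-/- arrays, against 4.37, 4.03, 3.73 and 4.44 in wt arrays. The groups overlapped, although the Irak1-/- array was the higher one in each pair. Its fitted difference was 0.49 (SE 0.181, adjusted p = 0.652), and the largest of its pair differences was 1.24 in pair 3. Without pair 3 the difference was 0.24 (adjusted p = 0.794, within a range of 0.586 to 0.962 over its alternatives). C1qa read 5.44, 5.54, 5.11 and 5.68 in Irak1-/- arrays, against 5.49, 5.19, 5.23 and 5.28 in wt arrays. The pairs of C1qa were split, with the Irak1-/- array higher in 2 of 4, and the lowest of its 8 levels was that of the Irak1-/- array of replicate 3. Its difference was 0.14 (SE 0.129, 95% interval -0.15 to 0.44, adjusted p = 0.910). Leaving out 1 pair gave 0.06 to 0.23, the lowest without pair 4 and the highest without pair 3, and without Irak1-/- replicate 3 it was 0.26.

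Across the 8 arrays Pearson's r was 0.82 between C1qb and C1qc, 0.46 between C1qa and C1qb and 0.20 between C1qa and C1qc. These values describe arrays that share recipients in pairs and carry no test. The nearest tested genes on either side of the C1q cluster were Lactbl1, with a difference of 0.09, and Epha8, with -0.19, and their adjusted p values were 0.948 and 0.866. The Lactbl1 difference was -0.03 without pair 3.

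Apoe, the lipid carrier that macrophages secrete after they take up cells, read 4.08, 4.50, 4.65 and 4.77 in Irak1-/- arrays, against 4.04, 4.30, 4.05 and 4.09 in wt arrays. The Irak1-/- array was the higher one in all 4 pairs, and the groups overlapped through replicate 1, whose arrays differed by 0.04. The fitted difference was 0.38 (SE 0.136, adjusted p = 0.640), and without Irak1-/- replicate 3 it was 0.33.

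Aif1, which encodes the actin-binding protein IBA1 of macrophages and microglia, had the largest difference of the 10. Its levels were 5.03, 5.48, 6.44 and 5.99 in Irak1-/- arrays, against 4.79, 4.58, 4.64 and 4.61 in wt arrays. All Irak1-/- arrays lay above all wt arrays, the wt arrays lay within a narrow band, and the Irak1-/- arrays spread widely. The means were 5.73 ± 0.615 in Irak1-/- and 4.65 ± 0.0949 in wt arrays (SD, n = 4 each). The fitted difference was 1.08 (SE 0.222, 95% interval 0.57 to 1.58, adjusted p = 0.260), which is 2.11-fold. Differences were 0.24, 0.90, 1.81 and 1.37 in pairs 1 to 4, so pair 1 was the smallest and pair 3 the largest. Without pair 1 the adjusted p was 0.0835, and without Irak1-/- replicate 3 the difference was 0.84 (adjusted p = 0.470). Over the alternatives in which Aif1 was tested the adjusted p ran from 0.0835 to 0.668.

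Lst1, a leukocyte transcript whose gene is the nearest tested one to Aif1 on 1 side in the class III region of the MHC, read 7.07, 7.49, 8.14 and 7.69 in Irak1-/- arrays, against 6.94, 6.33, 6.76 and 6.28 in wt arrays. Its groups lay apart as well, with a difference of 1.02 (SE 0.204, adjusted p = 0.226). On the other side of Aif1, Prrc2a had -0.14 (adjusted p = 0.910), which was -0.03 without pair 3 and -0.000284 without Irak1-/- replicate 3. Over the 16 genes that are nearest to the 10, 5 had a positive difference, none passed in this limma fit, 1 was higher in all 4 pairs, and the median was -0.05.

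**Figure D2:**
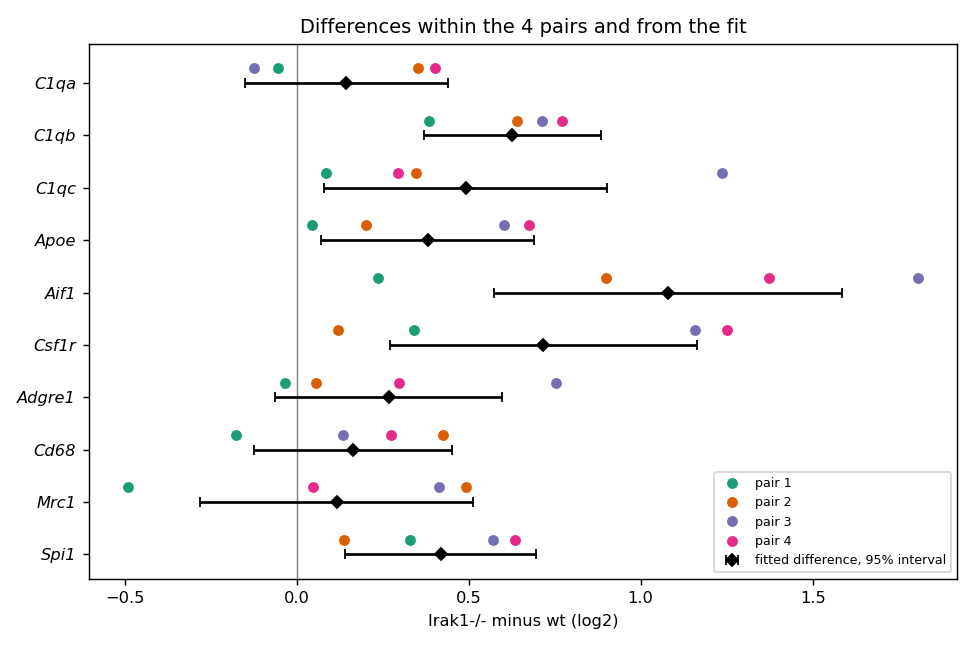
Differences between Irak1-/- and wt (horizontal axis, log2) of the 10 genes. Coloured points are the 4 pairs, diamonds are fitted differences and bars their 95% confidence intervals; the intervals of C1qb, C1qc, Apoe, Aif1, Csf1r and Spi1 lie above 0 before adjustment over all genes, and pair 1 gives the lowest point for most of them.

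Csf1r encodes the receptor for the macrophage growth factors CSF1 and IL-34. It read 4.39, 4.33, 4.78 and 4.61 in Irak1-/- arrays, against 4.05, 4.21, 3.62 and 3.36 in wt arrays. Here the groups lay apart as well, by a small gap between 4.33 and 4.21, both of replicate 2. The fitted difference was 0.72 (SE 0.196, 95% interval 0.27 to 1.16, adjusted p = 0.471), or 1.64-fold. In contrast with Aif1, the wt arrays of Csf1r varied more than the Irak1-/- arrays, with SDs of 0.209 in Irak1-/- and 0.386 in wt.

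Its ligand gene Csf1, which activated T cells also make, had the opposite sign. Csf1 read 5.11, 4.87, 4.77 and 5.01 in Irak1-/- arrays, against 5.46, 5.36, 5.53 and 5.57 in wt arrays. Each Irak1-/- array lay below each wt array, with a difference of -0.54 (SE 0.113, adjusted p = 0.267). Of 12 genes of the CSF1 and related growth factor axis, 9 were tested and none passed in either direction in the limma fit, with 1 lower and 0 higher at an unadjusted p under 0.05. The median was 0.00, and Csf2ra, a chain of the GM-CSF receptor, had 0.24, while Csf2, which encodes GM-CSF, had -0.22.

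Adgre1 encodes an adhesion receptor, the surface protein by which mouse macrophages are often recognised. It read 4.54, 4.45, 5.38 and 4.90 in Irak1-/- arrays, against 4.58, 4.40, 4.63 and 4.60 in wt arrays. The groups overlapped, and the Irak1-/- array of replicate 3 was the highest. The difference was 0.27 (SE 0.145, adjusted p = 0.812), and it was 0.08 without that array. Mrc1, the mannose receptor CD206 of tissue macrophages, had a mean level of 3.43 over the 8 arrays and lay under the level filter, whose lowest passing mean was 3.90. Its levels were 3.26, 3.64, 3.36 and 3.67 in Irak1-/- arrays, against 3.75, 3.15, 2.95 and 3.62 in wt arrays. The groups overlapped, and the wt arrays spread more widely, with SDs of 0.200 in Irak1-/- and 0.382 in wt. In a fit on all 22180 genes its difference was 0.12 (SE 0.173, 95% interval -0.28 to 0.51), and without pair 2 it was -0.01.

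Cd68 encodes a glycoprotein of lysosomes and endosomes that is abundant in macrophages. It read 6.13, 6.22, 6.52 and 6.55 in Irak1-/- arrays, against 6.31, 5.80, 6.39 and 6.28 in wt arrays. The groups overlapped, with a difference of 0.16 (SE 0.127, 95% interval -0.12 to 0.45, adjusted p = 0.895), and pair 1 had the opposite sign at -0.18. Leaving out 1 pair gave 0.08 to 0.28, the lowest without pair 2 and the highest without pair 1. Spi1 encodes PU.1, the transcription factor that macrophages and other myeloid cells need. It read 4.77, 4.45, 4.65 and 5.36 in Irak1-/- arrays, against 4.44, 4.31, 4.08 and 4.72 in wt arrays. The groups overlapped, yet all 4 pairs had the higher level in the Irak1-/- array, by 0.33, 0.14, 0.57 and 0.63. The fitted difference was 0.42 (SE 0.122, adjusted p = 0.493), and without Irak1-/- replicate 3 it was 0.47.

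Pair 1 differed least. The mean difference over the 10 genes was 0.07, 0.37, 0.73 and 0.60 in pairs 1 to 4, and 6, 10, 9 and 10 of the genes were higher in the Irak1-/- array. The medians over all genes tested in the same pairs lay between -0.06 and 0.00. Among the 45 pairings of the 10 genes, Pearson's r over the 8 arrays ran from -0.26 (C1qa with Adgre1) to 0.90 (C1qb with Aif1), with a median of 0.57. The arrays share genotype and recipients, so these values describe the arrays and carry no test.

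Markers of other myeloid cells were read on the same arrays. The monocyte markers had mean differences of 0.48, 0.77, 0.76 and 1.05 in pairs 1 to 4, with mean levels of 6.39 to 6.95 on the Irak1-/- arrays and 5.74 to 5.91 on the wt arrays. Lyz2, the lysozyme of myeloid cells, and Chil3, a chitinase-like protein of monocytes and macrophages, were the 2 of 8 tested markers that rose, and none fell. Lyz2 rose by 4.16 on the log2 scale (SE 0.302, adjusted p = 0.00161) and Chil3 by 2.77 (adjusted p = 0.00447, or 0.116 without the pairing). The adjusted p of Chil3 ran from 0.000990 to 0.305 over its alternatives, and it did not pass without the pairing and Irak1-/- replicate 3 either. Over the 12 markers found, 8 had a positive difference and the median was 0.20, well under the means of the list. Ly6c2, Ccr2, Plac8 and Ifitm3 had negative differences, of -0.13, -0.13, -0.05 and -0.10. Ifitm6 and Ms4a4c, with 1.33 and 0.64, did not pass, with adjusted p values of 0.404 and 0.449.

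Dendritic cell markers had mean differences of 0.29, 0.42, 0.35 and 0.30 in pairs 1 to 4, and mean levels of 5.27 to 5.37 on the Irak1-/- arrays and 4.96 to 5.04 on the wt arrays. Of 11 tested, H2-Aa, a chain of MHC class II, rose by 1.74 (adjusted p = 0.00317) and none fell. H2-Ab1 and H2-Eb1, further class II chains, had 1.77 and 0.82 (adjusted p = 0.0798 and 0.163). H2-Ab1 passed in 3 of its 14 alternatives, namely without pair 1, with median centring and with a random block, with adjusted p values of 0.0211 to 0.399 over all 14. The median over 13 markers found was 0.07, far below the values of the class II chains. Of these 13, 9 had a positive difference, and Batf3, next by p after the class II chains, had -0.27 (adjusted p = 0.812). T cell markers had means of 0.16, -0.05, -0.13 and -0.000786 and B cell markers of -0.05, -0.04, -0.03 and -0.03 in the same pairs, and none of either list passed in limma or had an unadjusted p under 0.05. Cd6 and Cd4, the T cell markers with the smallest p, had differences of 0.19 and -0.12 (adjusted p = 0.935 and 0.936). In bulk samples, fewer cells of a type and less RNA per cell cannot be told apart. The part that these other myeloid genes have in the differences of the 10 was not tested.

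**Figure D3:**
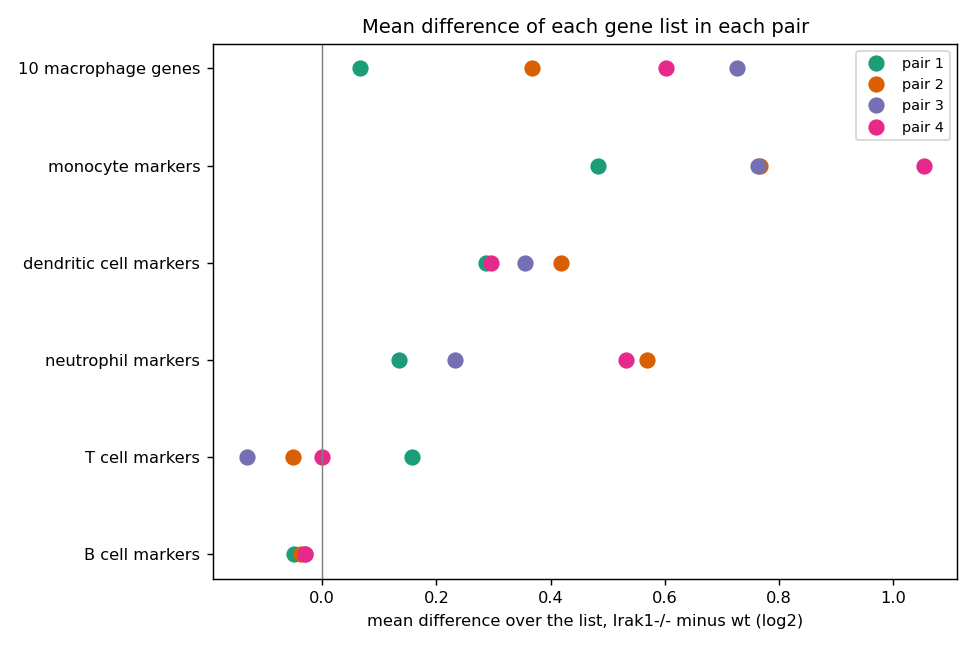
Mean difference between Irak1-/- and wt over each list (horizontal axis, log2) in each of the 4 pairs, for the 10 macrophage genes and for markers of other cell types. The macrophage genes lie between 0.07 and 0.73, monocyte markers between 0.48 and 1.05, and T and B cell markers between -0.13 and 0.16. Lyz2 and Chil3 had the largest differences of the monocyte markers.

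Further surface markers of tissue macrophages had a median near that of all genes, while the 4 with the smallest p had positive differences. Of 18 found, 11 were tested and none passed in the limma fit, while 4 were higher at an unadjusted p under 0.05. Of these 4, Clec7a and Mpeg1 passed the level filter through their Irak1-/- arrays. Of the 18, 12 had a positive difference, and the median was 0.06. Negative differences were found for Cx3cr1 (-0.24, lower in all 4 pairs), Cd5l (-0.16), Lgals3 (-0.15), Cd163 (-0.11), Lyve1 (-0.10) and Folr2 (-0.08). Cx3cr1 had the highest mean level of the 18, at 7.62, and which cells gave it was not tested. Siglec1, Vsig4 and Timd4 had 0.02, 0.05 and 0.07, and like Cd5l and Cd163 they lay under the level filter. Fcgr1, the high-affinity receptor for IgG, read 5.01, 4.87, 4.71 and 4.99 in Irak1-/- arrays, against 3.85, 4.16, 4.22 and 3.99 in wt arrays. Its groups lay apart, with a difference of 0.84 (SE 0.135, adjusted p = 0.104), which passed without the pairing (adjusted p = 0.0303, with a range of 0.0203 to 0.425 over its alternatives). Clec7a, the beta-glucan receptor Dectin-1, had 0.90, Mpeg1, a pore-forming protein of phagocytes, had 1.11, and Sirpa, the receptor of the signal CD47, had 0.49 (adjusted p = 0.128, 0.209 and 0.643).

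Receptors and bridging molecules for apoptotic cells, the core of efferocytosis, held no gene that passed. All 20 were found and 12 were tested, with 0 at an unadjusted p under 0.05 in limma. Of the 20, 11 had a positive difference and the median was 0.07. The genes with the smallest p were Mfge8, which bridges phosphatidylserine to integrins, at 0.19, Itgav, an integrin chain, at -0.16, and the receptor kinases Tyro3 at -0.17 and Axl at 0.14, with adjusted p values from 0.872 to 0.904. Engulfment genes had a median of 0.01 over 17, with 15 tested, none past the threshold and 1 higher at an unadjusted p under 0.05. Cybb, the catalytic chain of the phagocyte oxidase, read 4.77, 4.53, 4.99 and 5.59 in Irak1-/- arrays, against 3.54, 3.64, 3.40 and 3.20 in wt arrays. The groups lay apart, with a difference of 1.52 (SE 0.215, adjusted p = 0.0635, or 0.0173 without the pairing), and its adjusted p ran from 0.0125 to 0.184 over its alternatives. Cybb passed the level filter through its Irak1-/- arrays. Lamp1 and Lamp2, membrane proteins of lysosomes, had 0.26 and 0.22, and Elmo2, a Rac activator, -0.23.

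Lysosomal genes, which digest what is taken up, had a median of 0.15 over 13 found. Of these 12 were tested and none passed in limma, 4 were higher at an unadjusted p under 0.05, and 9 had a positive difference. Cd63, a tetraspanin of late endosomes, had 0.95 (SE 0.185, adjusted p = 0.213) and passed the level filter through its Irak1-/- arrays. The protease genes Ctss and Ctsl had 0.43 and 0.34, and Hexa, a subunit of hexosaminidase, 0.42. Of the 13 found, these 4 alone were higher in all 4 pairs, beside 5.26% of genes tested. They were named for their small p in the same paired fit, so their agreement over the pairs is no support. Genes of cholesterol efflux and lipid handling, the company of Apoe, had a median of 0.12 over 15 found, 13 of them positive, with none of 11 tested past the threshold and 0 at an unadjusted p under 0.05 in limma. Plin2, a lipid droplet protein, had 0.34, Fabp4, a fatty acid carrier, 0.88 (SE 0.547), and Trem2, a lipid receptor of macrophages, 0.17. Leaving out 1 pair gave 0.35 to 1.72 for Fabp4, the lowest without pair 3 and the highest without pair 2, and 0.20 to 0.46 for Plin2, the lowest without pair 4.

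Complement genes other than C1q had a median of 0.02 over 13 found. Of these 7 were tested and none passed in limma, with 1 higher and 1 lower at an unadjusted p under 0.05. Cfb, factor B of the alternative pathway, read 5.61, 5.48, 5.95 and 5.41 in Irak1-/- arrays, against 4.96, 4.51, 4.73 and 4.74 in wt arrays. Its groups lay apart (difference 0.88, SE 0.129, adjusted p = 0.0729). Cfb passed in 3 of its 14 alternatives, namely the 60th percentile filter, median centring and a random block, with adjusted p values of 0.0281 to 0.399 over all 14. Itgax, the CD11c chain of a complement receptor and a marker of dendritic cells and some macrophages, had the opposite sign. Itgax read 5.58, 5.76, 4.72 and 5.05 in Irak1-/- arrays, against 5.70, 6.01, 5.80 and 5.97 in wt arrays. It was lower in the Irak1-/- array of all 4 pairs, with a difference of -0.59 (SE 0.173, adjusted p = 0.501). C1ra, a protease that C1q activates, had -0.25.

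Transcription factors of macrophages other than Spi1 had a median of 0.20 over 10 found. Of these 6 were tested and none passed in limma, with 1 higher at an unadjusted p under 0.05. Id3, an inhibitor of E proteins that T cells also express, had 0.37 (adjusted p = 0.552). Cebpb, a factor of inflammatory myeloid genes, had 0.32, Maf, which T cells also express, 0.45, and Nr1h3, the sterol sensor LXR alpha, -0.24. Their adjusted p values lay between 0.862 and 0.863. Leaving out 1 pair gave 0.06 to 0.53 for Cebpb, the lowest without pair 3. It gave 0.12 to 0.78 for Maf, the lowest without pair 4 and the highest without pair 3, and the mean of its probe sets gave 0.23.

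**Figure D4:**
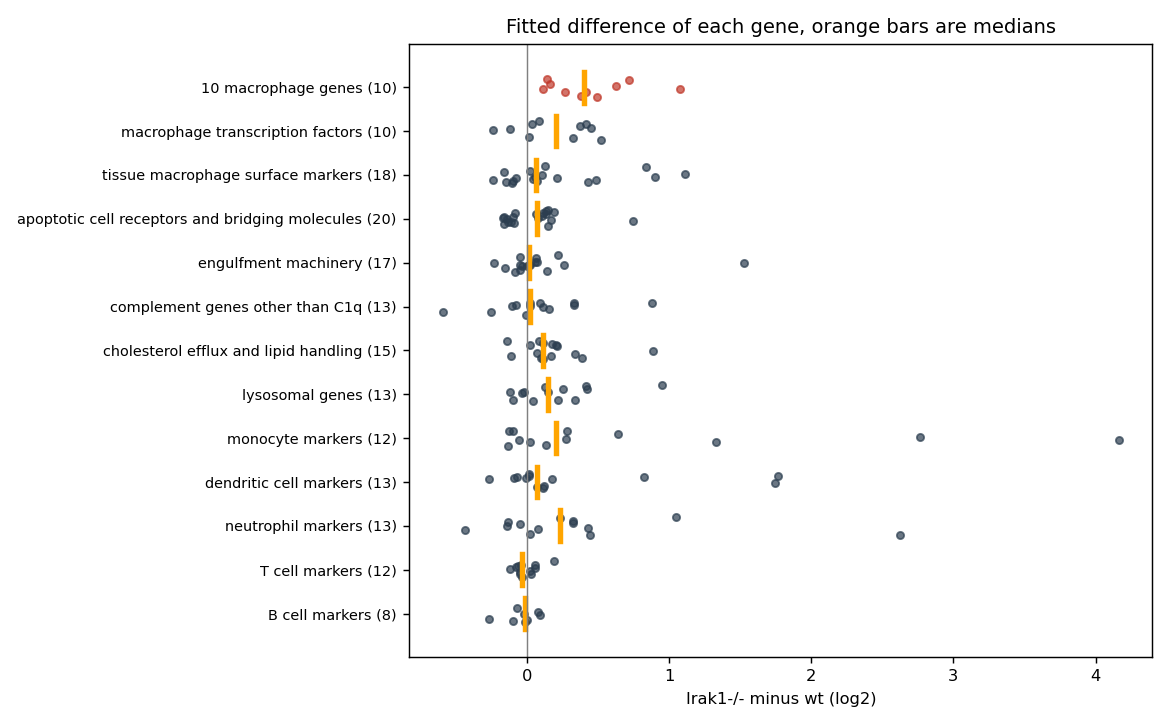
Fitted difference between Irak1-/- and wt (horizontal axis, log2) of every gene found in each list, with the number of genes in brackets and the median as an orange bar. The macrophage genes have a median of 0.40 and none exceeds 1.08, while single monocyte, dendritic cell and neutrophil markers lie further right than the medians of their lists.

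Genes with levels most like the 10 were sought among the 13299 other genes tested, by Pearson's r over the 8 arrays with the mean of the 10 after each was centred. The highest were Hp at 0.98, which encodes haptoglobin, H2-Ab1 at 0.97, Clec4a3, a lectin receptor of myeloid cells, at 0.97, Alox5ap, which serves leukotriene synthesis, at 0.97 and Lrg1, a secreted glycoprotein, at 0.95. Then came Zfas1, Narf, Evi5, Cfl2 and Dis3l at 0.94 to 0.95. The 95th percentile of r over all genes was 0.62, and r describes these 8 arrays alone. The mean of the 10 was itself higher in the Irak1-/- array of each pair. Genes picked by a high r with it were therefore bound to lean the same way, and their differences are no support. Clec4a3 rose by 1.76 (SE 0.225, adjusted p = 0.0420) and did not pass without pair 2 (adjusted p = 0.259). Without pair 3 or pair 4 its mean level lay under the filter. It did not pass either with every probe set tested, with no level filter or with quantile normalization, and its adjusted p ran from 0.00789 to 0.259 over the alternatives in which it was tested. Hp read 4.28, 4.76, 5.31 and 5.68 in Irak1-/- arrays, against 4.06, 3.47, 3.79 and 3.83 in wt arrays. Its groups lay apart, with a difference of 1.22 (SE 0.231, adjusted p = 0.190).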

How the data were processed

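RNA was labelled with biotin and hybridized to Affymetrix arrays, per the labels' protocols. For each of 8 arrays a log2 value per probe set was deposited, 41345 in all; the sources used here do not state how they were background-corrected, summarized or normalized. Probe sets were named through the platform's annotation: 23521 carried 1 symbol, 1814 several and 16010 were unnamed here. The probe set with the highest mean was kept per gene, and genes under the 40th percentile of mean level were left out. The fit used lmFit and eBayes of limma 3.58.1 (R 4.3.3), with the pair as a block, two-sided, p adjusted by Benjamini-Hochberg over all genes tested. Pairs rest on shared recipients; deviations from the group means correlated at 0.08 to 0.20 within pairs. The procedure was tested on simulated data.

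The members, lists and alternatives were chosen with earlier results of these data known. Genes named are the members, up to 4 per list with the smallest p, the 10 most alike in level and the nearest tested neighbours, most of these as counts. Some monocyte, surface and neutrophil markers that went the other way or differed little were named as well. Of 221 list symbols, 197 were found. Alternatives were the block, normalization, centring, filter, probe set and variance settings, and leaving out arrays or pairs.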

Additional observations from a re-analysis of the deposited data

How the results depend on the processing

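No member was called by limma in any of the 14 alternatives, and their median difference stayed between 0.27 and 0.48. Omitting single pairs, it ran from 0.27 to 0.48, the lowest without pair 3. Members at an unadjusted p under 0.05 numbered 2 with the filter at the 60th percentile, where 4 of the 10 were tested, and 3 without the Irak1-/- array of replicate 3 and without pairs. Leaving out 1 pair gave 4 to 6. Without the replicate block 5 reached that p, and the pairing changed no call of a member. Of 140 member values, 1 changed sign: Mrc1 was at -0.00946 without pair 2, and omitting single pairs gave it -0.00946 to 0.318. Genes called higher numbered 19 with median centring and 14 with a random block, and 6 to 17 when 1 pair was omitted, the highest without pair 1. Genes called lower numbered 2 with the 60th percentile filter, with median centring and with a random block, 3 with trend and robust eBayes, and 1 when any single pair was omitted. Over the omitted pairs Lactbl1 ran from -0.0320 to 0.179 and Cd4 from -0.205 to 0.0158, both with their sign changed without pair 3, and Cd6 ran from -0.0702 (without pair 1) to 0.386. Of 722 values of 54 of the other named genes, 694 kept their direction and their side of the threshold. Omitting 1 pair moved the difference by over 1.5 times, or changed its sign, for 5 of the 10 members (C1qa, C1qc, Adgre1, Cd68 and Mrc1) and for 25 of those 54. The causes were not tested. Signal over background, which limits what low levels can show, is unknown here.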

Other observations

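Neutrophil markers were not described above. All 13 were found, 7 were tested and none passed, with 3 higher at an unadjusted p under 0.05 in limma. Their mean differences were 0.13, 0.57, 0.23 and 0.53 in pairs 1 to 4, the median was 0.23, and mean levels were 3.85 to 4.33 on the Irak1-/- arrays and 3.67 to 4.02 on the wt arrays. S100a8, a subunit of calprotectin, read 5.74, 7.24, 7.94 and 8.38 in Irak1-/- arrays, against 4.63, 3.98, 5.74 and 4.47 in wt arrays. The lowest Irak1-/- level, of replicate 1, and the highest wt level, of replicate 3, were nearly equal, and the difference was 2.62 (SE 0.375, limma adjusted p = 0.0635). It passed with pair 1 left out (adjusted p = 0.0137, with a range of 0.0137 to 0.477 over its alternatives). S100a9, its partner, had 1.05 (adjusted p = 0.416), and Mmp8, a neutrophil collagenase, had 0.32 (adjusted p = 0.582). Elane went the other way, lower in all 4 pairs, with -0.14 (adjusted p = 0.898). Ly6g, under the level filter, had -0.43. Of the 13 markers, 9 had a positive difference.

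Markers of mast cells, basophils and eosinophils were all found, 8 of 8, and none passed the level filter, with mean levels of 2.95 to 3.15 on the Irak1-/- arrays and 2.73 to 3.01 on the wt arrays. Stromal and endothelial markers, 9 of 11 found, had mean levels of 4.05 to 4.36 on the Irak1-/- arrays and 4.13 to 4.41 on the wt arrays, a median difference of -0.05 and no call among 7 tested, with 0 at an unadjusted p under 0.05 in limma. Red cell and epithelial markers had a median of -0.07 over 4 of 8 found, with no call among 3 tested and 0 at an unadjusted p under 0.05.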
